A study of Mus musculus with 8 samples.

Results

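The genes of 8 transcription factors that set the hepatocyte expression programme, Hnf4a, Foxa1, Foxa2, Foxa3, Cebpa, Cebpb, Onecut1 and Prox1, were examined for DNA methylation. A CpG was taken as part of a gene when it lay in the gene body of the mouse build mm10 or within 1500 bases upstream of any annotated start, and it was tested when every mouse had at least 5 reads there with both strands summed. This gave 744 tested CpGs in the 8 genes, of 897263 tested in the genome. Reduced representation bisulfite sequencing (RRBS) was done on perfusion-isolated hepatocytes of female C57Bl6/J mice, 4 of them aged 40 weeks (mid-aged) and 4 aged 10 weeks (young). Both ages received a control diet. RRBS cuts DNA with MspI at CCGG and reads the fragment ends, so it samples CpG-dense sequence and leaves most other CpGs unread. No transgene, deletion or treatment distinguished the groups, and each library was 1 mouse.

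HNF4A is a nuclear receptor that controls genes of lipid, bile acid and drug metabolism, and its gene has a downstream promoter, P1, used in adult liver, and an upstream promoter, P2, used in fetal liver and other tissues. The FOXA proteins are forkhead pioneer factors that open chromatin for other regulators, C/EBPα and C/EBPβ are leucine zipper factors of metabolic and acute-phase genes, and ONECUT1 (HNF6) and PROX1 are homeodomain proteins of liver development. CpG-dense starts of active genes usually lack methylation, whereas CpG-poor promoters and gene bodies are more variable.

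The sequences that frame the results are printed on the forward strand of GRCm38 (mm10), from the RefSeq genome, with the CG of each tested CpG in capitals. The contrast between an unread and a well-read start is shown by the 250 bases before the RefSeq starts of Hnf4a P1 and of Cebpb. The Hnf4a stretch held 4 CpGs and no CCGG site, and none of its CpGs was tested, whereas the Cebpb stretch held 41 CpGs and 3 CCGG sites, and 21 of its CpGs were tested at a mean methylation level of 1.10%.
Hnf4a P1, chr2:163546905-163547154: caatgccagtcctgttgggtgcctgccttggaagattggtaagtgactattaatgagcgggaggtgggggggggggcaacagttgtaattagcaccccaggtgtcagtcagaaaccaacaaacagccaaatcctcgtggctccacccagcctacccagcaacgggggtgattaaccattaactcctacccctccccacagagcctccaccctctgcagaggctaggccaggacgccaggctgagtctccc
Cebpb, chr2:167688665-167688914: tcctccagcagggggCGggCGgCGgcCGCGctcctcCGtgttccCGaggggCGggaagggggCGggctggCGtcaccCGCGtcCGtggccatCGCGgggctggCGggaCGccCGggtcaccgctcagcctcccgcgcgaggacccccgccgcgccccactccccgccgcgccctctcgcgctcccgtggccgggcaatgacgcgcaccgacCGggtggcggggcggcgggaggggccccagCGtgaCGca

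Stretches with the larger age differences are shown next, with mean levels from 12.4% to 82.6% over the 8 mice. They are the end of the sampled coding sequence in Foxa1 exon 2 (gene on the reverse strand), Hnf4a exon 2, Prox1 intron 4 (reverse strand), and 100 bases around single CpGs in Onecut1 intron 1 and upstream of a short Hnf4a transcript.
Foxa1 exon 2, chr12:57542348-57542483: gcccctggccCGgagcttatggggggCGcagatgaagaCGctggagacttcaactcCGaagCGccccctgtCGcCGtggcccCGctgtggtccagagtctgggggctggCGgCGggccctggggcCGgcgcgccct
Hnf4a exon 2, chr2:163551616-163551667: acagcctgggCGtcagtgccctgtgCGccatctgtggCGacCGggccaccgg
Prox1 intron 4, chr1:190137888-190138052: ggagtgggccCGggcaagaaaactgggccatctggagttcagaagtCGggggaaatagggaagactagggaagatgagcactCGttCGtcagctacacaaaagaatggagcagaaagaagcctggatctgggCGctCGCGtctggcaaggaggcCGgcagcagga
Onecut1 intron 1, chr9:74868633-74868732: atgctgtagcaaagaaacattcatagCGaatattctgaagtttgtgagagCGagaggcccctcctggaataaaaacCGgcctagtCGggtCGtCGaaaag
Hnf4a, before the internal start, chr2:163549973-163550072: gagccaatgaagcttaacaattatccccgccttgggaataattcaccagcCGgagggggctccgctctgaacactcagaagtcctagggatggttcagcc
Onecut1 upstream, chr9:74860619-74860788: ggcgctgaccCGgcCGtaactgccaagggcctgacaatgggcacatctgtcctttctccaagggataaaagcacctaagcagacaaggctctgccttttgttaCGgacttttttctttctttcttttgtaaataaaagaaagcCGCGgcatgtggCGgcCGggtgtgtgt
The last of these is the methylated stretch upstream of Onecut1, where 7 tested CpGs lay between 83.5% and 92.1% methylation.

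The libraries held 84688363 to 118475218 reads over CpGs in mid-aged and 46382661 to 72783367 in young mice. At the 744 CpGs, the median coverage per mouse was 58 to 102 reads in mid-aged and 18 to 57 in young mice, the lowest in young mouse 1. The numbers in the library titles also run with age, so age, library order and depth cannot be told apart. Of the CpGs in the 8 genes, 389 also lay inside another annotated gene, including all 138 of Onecut1 (Gm20649) and 142 of the 171 of Cebpb (Tmem189), and a methylation level at these sites belongs to the DNA and not to 1 gene.

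The genes were read to very different depth of detail. Cebpb had 171 tested CpGs of 289 in the reference (59.2%) and Cebpa 136 of 298 (45.6%). Foxa2 had 67 of 247, Foxa3 71 of 289, Onecut1 138 of 591 and Foxa1 75 of 347. Prox1 had 65 of 831 (7.82%) and Hnf4a 21 of 916 (2.29%), the lowest share of the 8. Hnf4a and Prox1 were also the genes with the fewest CpGs per 100 bases, 1.36 and 1.53, against 9.62 in Cebpb and 7.21 in Cebpa.

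The 8 genes were mostly unmethylated where they were read. Over all 8 mice, 89.5% of their tested CpGs had a mean level under 20% and 4.57% a level over 80%, against 48.5% and 37.7% of all tested CpGs in the genome. The share under 20% was 100% in Cebpa, 99.4% in Cebpb, 97.0% in Foxa2, 92.0% in Foxa1, 91.3% in Onecut1, 74.6% in Foxa3, 60.0% in Prox1 and 38.1% in Hnf4a. Levels were lower where CpGs lay closer together. The Spearman correlation between the number of other CpGs within 100 bases and the level was -0.587 across the 744 CpGs and -0.685 across the 897263, where neighbouring CpGs share fragments and libraries. Among CpGs with 10 or more such neighbours, 98.3% of the 536 in the 8 genes and 86.9% of the 403077 in the genome were under 20%.

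**Figure D1:**
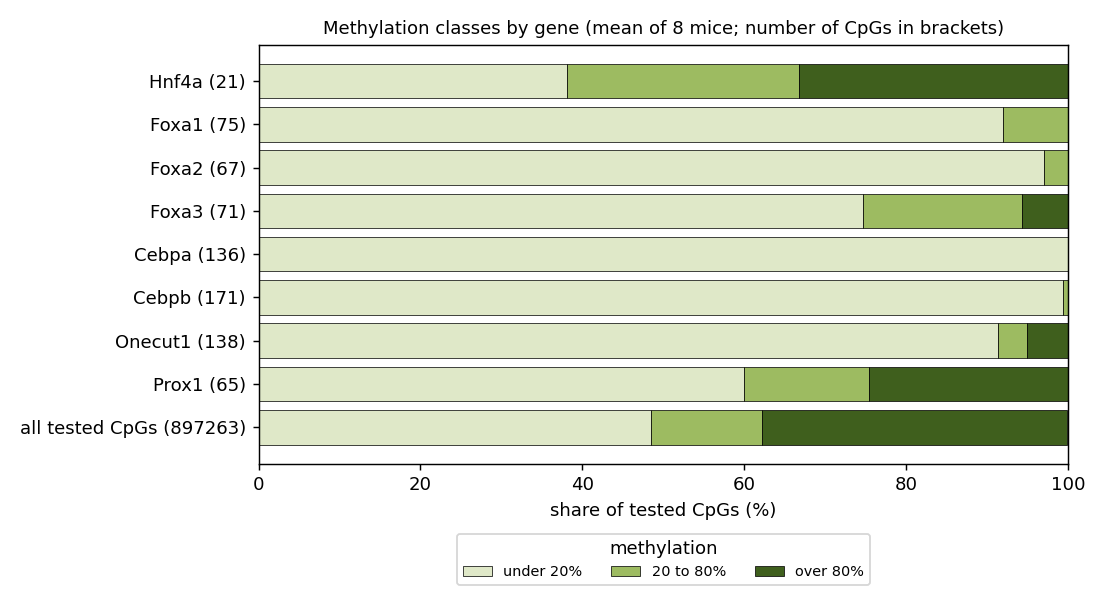
Share of tested CpGs (%, x axis) with a mean methylation level under 20%, from 20 to 80% or over 80% in each gene and in the genome, over the 8 mice, with the number of CpGs in brackets. Cebpa and Cebpb are almost wholly under 20%, whereas 33.3% of the Hnf4a and 24.6% of the Prox1 CpGs are over 80%.

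Hnf4a, the nuclear receptor gene, was poorly read at both promoters. Of 37 reference CpGs in the P1 window (chromosome 2, 163545687 to 163547688), 12 had any reads and none had 5 reads in every mouse. In the P2 window (163505308 to 163507308), 8 of 30 had reads and 1 was tested, at 163506864, 56 bases after the P2 start, with 9.48% ± 8.18 in mid-aged and 13.8% ± 12.8 in young mice (SD, n = 4). Pooled over all mice and CpGs, 143 of 447 CpG reads in the P1 window and 139 of 878 in the P2 window were methylated, but the mice did not cover the same CpGs, and no comparison of the promoters was made.

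The other Hnf4a CpGs fell into methylated and partly methylated places. Between the P2 and P1 starts, 4 CpGs at 163513419 to 163513493 were at 89.7% in the mid-aged mice and 87.1% in the young, and CpGs at 163538889 and 163539027 were at 15.1% and 18.9% over all mice. In exon 2, 4 CpGs at 163551626 to 163551657 were intermediate. Across exon 6 and the end of intron 5, 3 CpGs at 163562502 to 163562542 were at 96.2% and 98.2%. Hnf4a was the member with the lowest coverage of its sequence and the highest mean level, 50.1% ± 1.95 in mid-aged and 51.3% ± 2.08 in young mice (n = 4).

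Foxa2 and Foxa3 had unmethylated starts, and Foxa1 was unmethylated on both sides of its coding start, which was not read. The 3 genes differed in the last exon, which holds most of the coding sequence of each. At the Foxa1 coding start, none of the 26 CpGs between 57546062 and 57546361 was tested. The nearest tested CpG, at 57545749, lay 372 bases from that start and was at 3.77%. Around the Foxa1 start, 67 consecutive tested CpGs over 4656 bases (chromosome 12, 57542419 to 57547074) were each under 20%, with a mean of 3.40%. At the far upstream end, 3 member CpGs belonged to a cluster that averaged 30.6% and 30.2% in mid-aged and young mice. In exon 2, the 20 tested CpGs averaged 9.05% ± 2.49 in mid-aged and 13.7% ± 0.870 in young mice.
In Foxa2, 65 of 67 tested CpGs formed such a stretch of 3472 bases (chromosome 2, 148043930 to 148047401) with a mean of 2.91%. The 25 tested CpGs of exon 3 averaged 4.41% ± 0.734 in mid-aged and 5.52% ± 1.74 in young mice, and 1 of them lay outside the stretch. This CpG, at 148043904, was at 29.5%, and the one that ended it upstream, at 148047488, at 24.5%. In Foxa3, 51 of 71 CpGs over 3283 bases (chromosome 7, 19021183 to 19024465) averaged 3.06%, and the 29 upstream CpGs did not exceed 5.51%. Foxa3 exon 2 was the most methylated of the 3 last exons, with 18 CpGs between 17.5% and 98.0% and means of 42.0% ± 1.51 in mid-aged and 47.6% ± 6.19 in young mice.

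Cebpa and Cebpb, both genes of a single exon, had the lowest levels. All 136 tested CpGs of Cebpa (chromosome 7, 35118400 to 35120960) were at 8.32% or less, with a mean of 1.07% ± 0.0873 in mid-aged and 1.20% ± 0.520 in young mice. In Cebpb, 167 CpGs from 167688427 to 167690090 on chromosome 2 averaged 0.913%. The 4 tested CpGs farthest upstream, 881 to 1016 bases before the start, were higher and reached 20.9%.

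In Onecut1, 97 consecutive CpGs over 5575 bases around the start (chromosome 9, 74861338 to 74866912) averaged 1.97%. Upstream the level changed over a short distance. The cluster at 74860629 to 74860778 was at 86.5% ± 0.836 in the mid-aged mice and 90.9% ± 2.02 in the young, the cluster at 74861269 to 74861494 at 11.8% and 10.3%, and the cluster across the start at 1.07% and 0.950%. In each of the 8 mice the 3 clusters kept this order. Intron 1 was partly methylated, with single CpGs up to 36.7%.

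Prox1 had an unmethylated start and a mostly methylated gene body. Near its starts, 37 CpGs of the promoter window averaged 1.51% ± 0.317 in mid-aged and 1.35% ± 0.292 in young mice. The gene body CpGs of introns 2, 3 and 4 averaged 80.6%, 73.4% and 78.1% in mid-aged mice, and the cluster in exon 2 at 190160743 to 190160836 (chromosome 1) was at 96.0% and 96.7%.

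**Figure D2:**
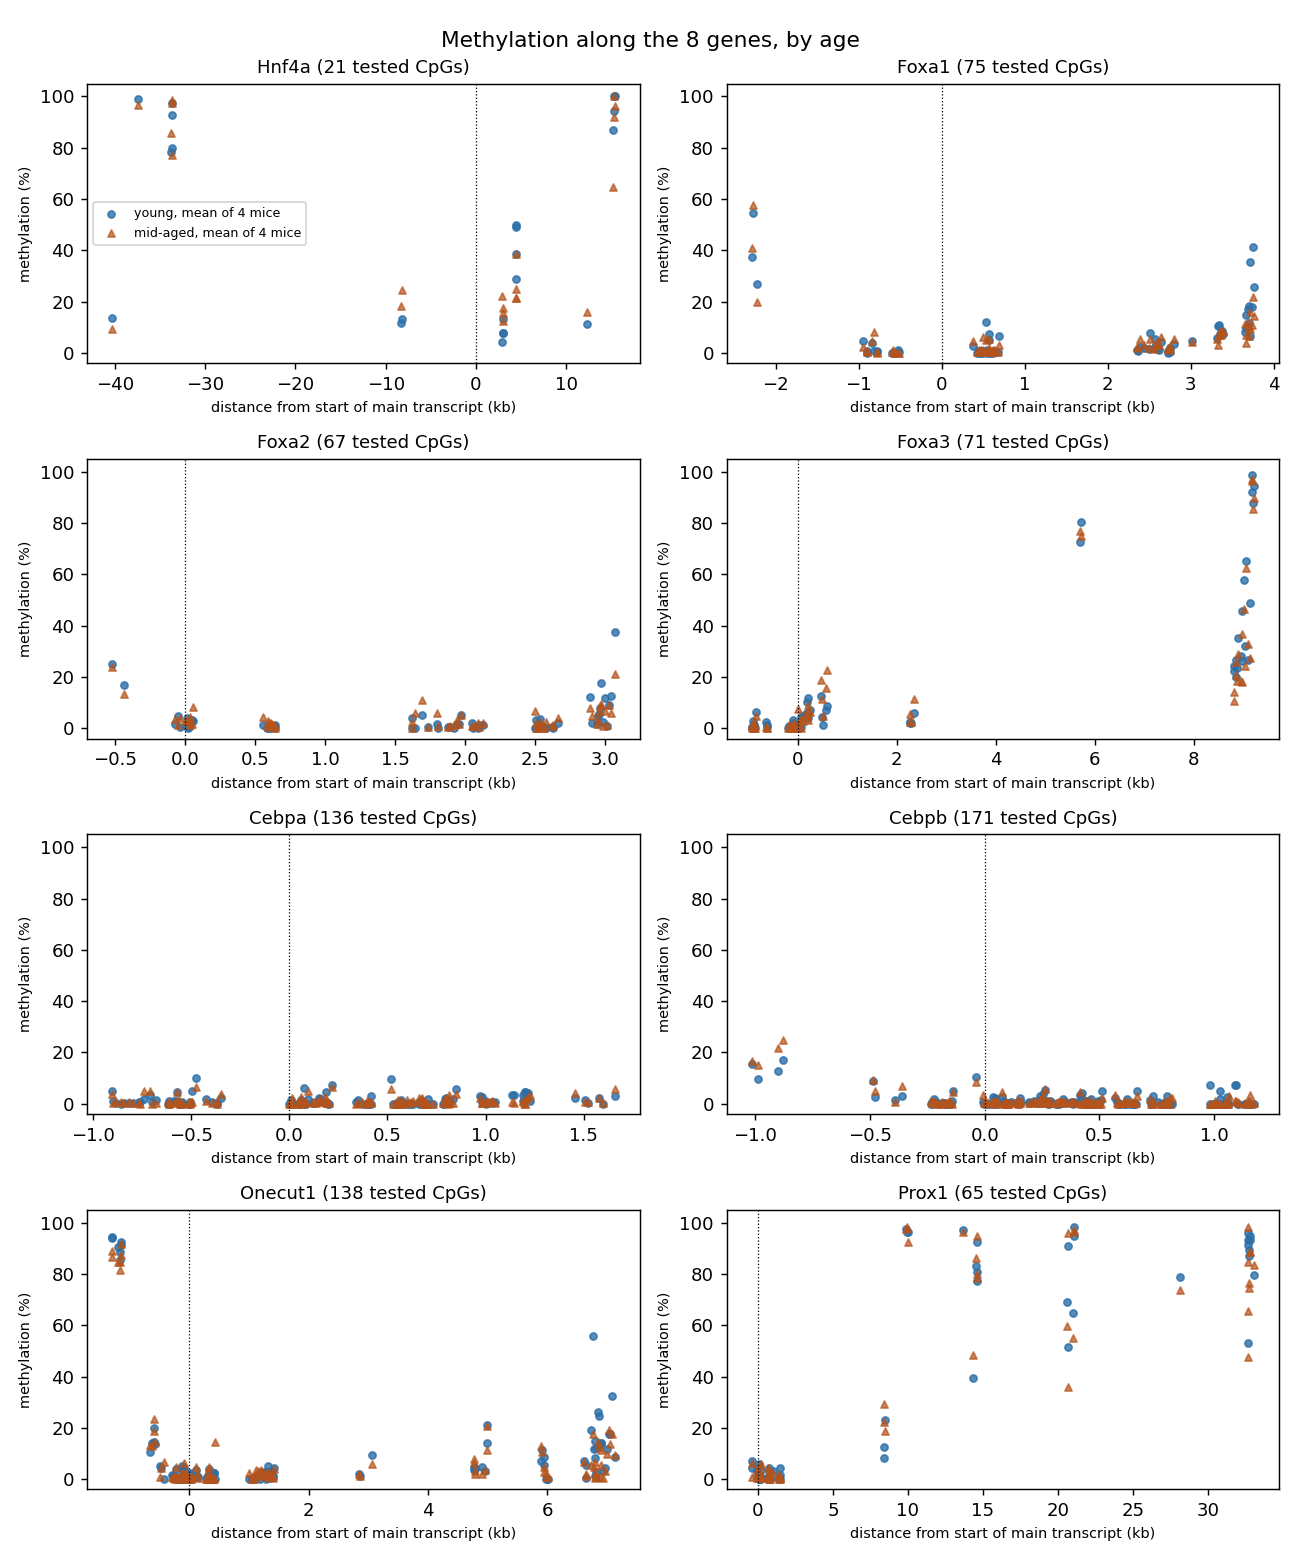
Methylation level (%, y axis) of each tested CpG against its distance in kb from the start of the main transcript (x axis) for the 8 genes, with blue circles for the mean of 4 young and orange triangles for the mean of 4 mid-aged mice. Levels are low around the starts of Foxa2, Foxa3, Cebpa, Cebpb, Onecut1 and Prox1. They are also low on both sides of the Foxa1 start, which had no tested CpG nearer than 372 bases. Levels reach 31.5% in the last exon of Foxa1, 98.0% in that of Foxa3 and 36.7% in Onecut1 intron 1.

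The study's comparison was between ages, and none of the 744 CpGs was called. A call required an adjusted p under 0.05 in the quasi-binomial test of methylated and unmethylated reads (Benjamini-Hochberg over 897263 CpGs). It also required the ages to differ by 5 or more percentage points, with a within-age variance of the fractions below 0.05. Across the genome, 552 CpGs were called higher in mid-aged mice (0.0615%) and 914 lower (0.102%). At an unadjusted p under 0.05, 73 of the 744 passed (9.81%), 35 higher and 38 lower, beside 5.16% of all CpGs higher and 3.93% lower, or 9.09% together. The lowest adjusted p was 0.108. limma on M values, a replicate block, moderation over all CpGs and a minimum of 10 reads also called 0 of the members. Over the genome, the minimum of 10 reads called 1516 CpGs. limma on M values called 40, and the block and the moderation over all CpGs called 0, so these settings could call few or no members. With reads thinned to equal coverage 1 was called higher, in Foxa3 intron 1 (19023034), where the difference was 3.77 points in the full reads (quasi-binomial adjusted p = 0.509) and 6.17 in the thinned reads (quasi-binomial adjusted p = 0.0299). Without young mouse 4, 1 was called lower, in Onecut1 intron 1.

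The groups did not overlap at 28 of the 744 CpGs, 22 with every mid-aged mouse above every young mouse and 6 the reverse. Among all CpGs this held for 2.33% and 1.24%. The median age difference was 0 percentage points over the 744 CpGs and 0.212 over all. The mean over the 744 CpGs was 8.48 to 8.61% in the 4 mid-aged and 8.94 to 9.26% in the 4 young mice, and the mean over all tested CpGs was 44.2 to 44.3% and 43.6 to 44.1%.

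Gene means were compared next. None of the 8 genes was called by limma, and none had an unadjusted p under 0.05, where 0.151% of the 24433 genes were called higher, 0.147% lower, and 11.4% had such an unadjusted p. At 10 or more reads in every mouse the unadjusted p was under 0.05 in Foxa1 (difference -1.54 points) and Onecut1 (-1.95), and with thinned reads in Prox1 (-2.08). It was also under 0.05 without the promoter windows in Foxa1 (-1.72) and Onecut1 (-2.69). Leaving out a mouse gave the same in Foxa1 without mid-aged mouse 3 (-1.32) or young mouse 4 (-1.26). It did so in Onecut1 without young mouse 4 (-1.66) and in Prox1 without mid-aged mouse 2 (-1.56). For these values the limma adjusted p was 0.170 to 0.427, and none was called. The share of all genes at an unadjusted p under 0.05 was not counted under these settings. In the main fit, with each CpG weighted equally, the 95% interval of every age difference lay within 5 percentage points of 0. Without the promoter windows the differences were larger in Hnf4a (-3.57 points), Foxa3 (-2.48) and Prox1 (-2.37), none of them called. The bound of 5 points was not examined for that setting. With CpGs weighted by their reads the differences were -14.0 points for Prox1, against -0.932, -3.93 for Onecut1 and -2.66 for Hnf4a, none of them called. The size of a gene difference thus depended on the weighting and on the CpGs included. Foxa1 had 5.44% ± 0.724 in mid-aged and 6.46% ± 0.644 in young mice, a difference of -1.02 points (95% interval -2.07 to 0.0294, adjusted p = 0.454 by limma). Onecut1 had 7.84% ± 0.378 and 8.99% ± 1.122 (difference -1.15, interval -2.42 to 0.107, adjusted p = 0.484 by limma). For Cebpb the means were 1.32% and 1.25%, with an interval from -0.355 to 0.494 points. In the main fit the largest difference was that of Hnf4a, -1.26 points (interval -4.31 to 1.79). The mid-aged mean was the lower in 6 of the 8 genes, though in Hnf4a not at 10 or more reads in every mouse (0.0987) and in Cebpa not without young mouse 4 (0.0647). The mice of both ages overlapped in each of the 8 genes. The median of the 8 gene differences was -0.894 points, beside 0.213 over all genes.

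**Figure D3:**
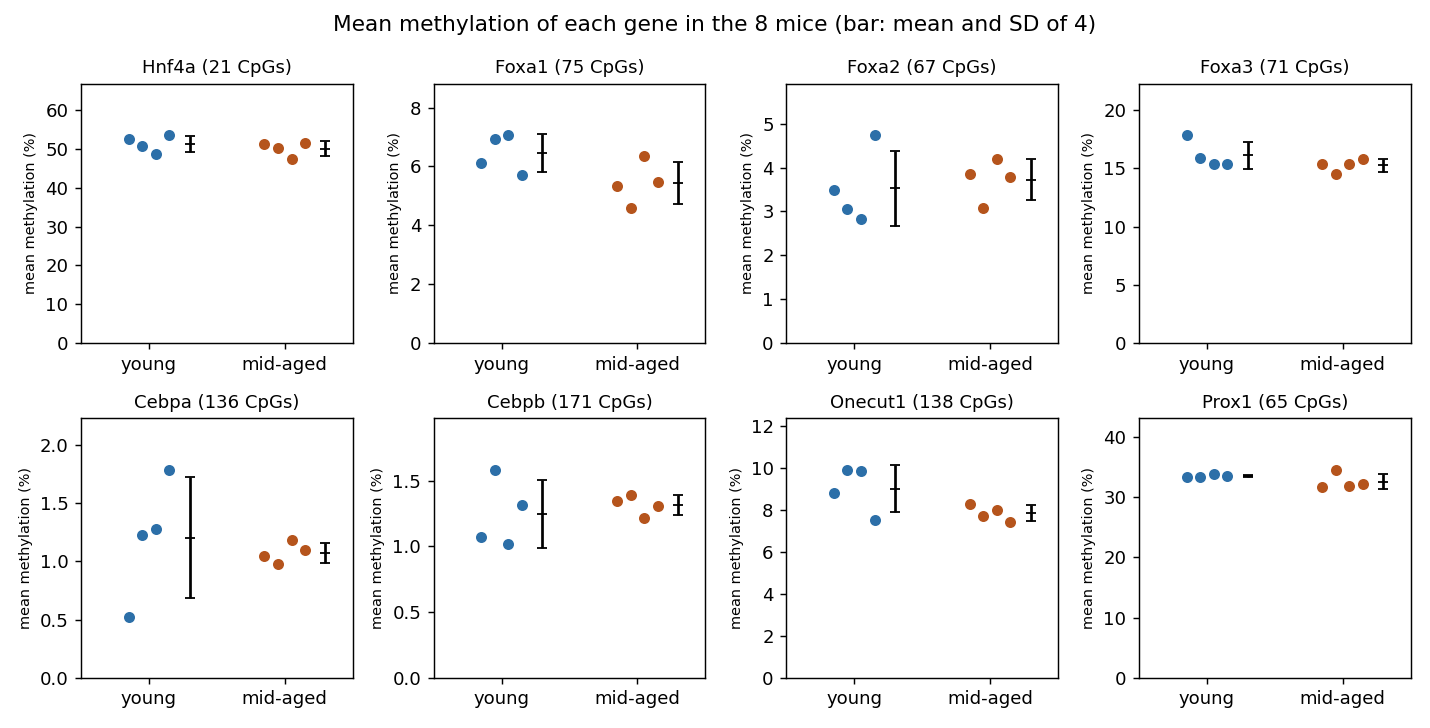
Mean methylation level (%, y axis from 0) of each gene in the 4 young (blue) and 4 mid-aged (orange) mice, with a black bar for the mean and SD of 4. The order runs from about 50% in Hnf4a to about 1% in Cebpa and Cebpb, and the ages overlap in each of the 8 genes.

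Promoter windows, from 1500 bases upstream to 500 bases downstream of the starts, gave the same outcome. Of 23556 windows in the genome, limma called 0.0976% higher and 0.0594% lower and 10.1% had an unadjusted p under 0.05. None of the 9 windows of the 8 genes was called, and 2 had an unadjusted p under 0.05. The Foxa2 window (37 CpGs) was at 3.60% ± 0.742 in the mid-aged mice and 2.53% ± 0.469 in the young. The window around an internal Hnf4a start (163550083, a short protein-coding transcript) held 4 tested CpGs, and its values were 22.6, 16.4, 13.0 and 16.1% in mid-aged mice and 1.09, 8.76, 11.1 and 12.3% in young mice. All mid-aged values were above the young values, with a difference of 8.72 points (95% interval 2.33 to 15.1, adjusted p = 0.348 by limma). For the other 8 windows the means of both ages lay between 1.08% and 10.5%. Weighting by reads changed the difference of the Foxa2 window from 1.07 to 0.481 points (adjusted p = 0.718 by limma) and that of the Onecut1 window from -0.0579 to -6.45 points (adjusted p = 0.384 by limma).

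RRBS fragments group CpGs, so clusters of 3 or more tested CpGs at most 100 bases apart were also compared. None of the 49 clusters of the 8 genes was called by limma, where 0.016% of the 93731 clusters in the genome were called higher and 0.0288% lower. At an unadjusted p under 0.05 there were 9 clusters (18.4%), beside 8.43% of all. For 26 clusters the 95% interval lay within 5 points of 0, and the widest reached from -33.9 to 3.97 points. The median difference was 0.0748 points, beside 0.260 over all clusters.

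The Foxa1 cluster at the end of the sampled part of exon 2 (57542358 to 57542473, 11 CpGs) was at 11.8, 8.55, 13.7 and 10.6% in the mid-aged mice and 24.5, 16.3, 17.2 and 17.4% in the young. Every young mouse was above every mid-aged mouse, with a difference of -7.66 points (95% interval -12.1 to -3.19, adjusted p = 0.317 by limma). The Foxa3 cluster in intron 1 (19022953 to 19023071, 5 CpGs) went the other way, with 14.9, 9.51, 18.6 and 16.0% in mid-aged and 5.35, 5.45, 6.50 and 10.3% in young mice. The ages overlapped there through 1 mouse of each, and the difference was 7.87 points (3.49 to 12.3, adjusted p = 0.295 by limma).

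In Onecut1 intron 1, the cluster at 74868536 to 74869049 (23 CpGs) was at 8.28, 6.27, 7.84 and 6.87% in the mid-aged mice and 13.5, 17.2, 19.3 and 6.89% in the young. Young mouse 4 lay among the mid-aged values, and the other 3 young mice lay above them. The upstream Onecut1 cluster was at 87.4, 86.5, 86.9 and 85.4% in the mid-aged mice and 92.8, 92.2, 88.3 and 90.3% in the young, with no overlap and a difference of -4.35 points (95% interval -7.62 to -1.07, adjusted p = 0.459 by limma). The Prox1 cluster in intron 4 (190137898 to 190138042, 8 CpGs) was at 75.1, 86.5, 74.9 and 75.5% against 86.0, 93.0, 86.8 and 83.1%, so that mid-aged mouse 2 overlapped the young mice.

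Upstream of Cebpb, the cluster at 167687899 to 167688034 (4 CpGs) was at 19.7% ± 2.84 in the mid-aged mice and 13.7% ± 3.81 in the young, with overlap between the ages. In Hnf4a exon 2, young mouse 1 was at 64.5% and young mouse 3 at 20.4%, and this spread made the interval the widest of the 49 clusters. The difference was -15.0 points, and -7.37 without young mouse 1. The Foxa2 cluster in exon 3 (148043904 to 148044077, 13 CpGs) was at 6.80% ± 1.60 and 9.73% ± 2.94. Its difference of -2.93 points was -0.163 with thinned reads, -5.92 at 10 or more reads in every mouse and -1.49 without young mouse 4. In Cebpa the cluster with the largest difference (35120277 to 35120527, 21 CpGs) was at 0.901% ± 0.182 and 1.93% ± 2.60, where young mouse 4 alone was at 5.74%.

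**Figure D4:**
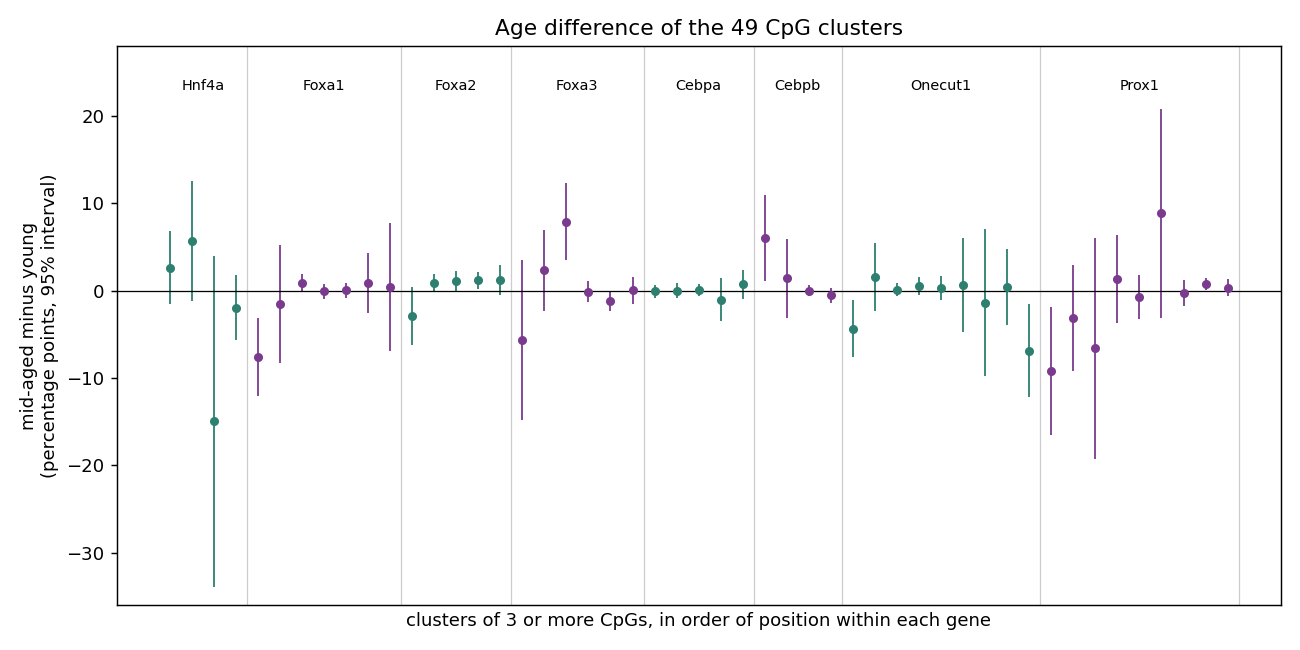
Mid-aged minus young difference in percentage points (y axis) with its 95% interval from limma for the 49 clusters, in order of position within each gene (x axis). Intervals are narrow in Cebpa, and the widest, in Hnf4a exon 2, runs from -33.9 to 3.97. Just after the internal Hnf4a start (163550131 to 163550215) the interval runs from -1.19 to 12.6.

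Single CpGs are given as a description, 1 for each gene, taken as the largest difference where no mouse had under 10 reads and the ages were fully separate. None passed the adjusted test. The largest was in Onecut1 intron 1 (74868683), at 21.1, 24.7, 14.5 and 10.6% in mid-aged and 78.6, 55.3, 58.1 and 30.9% in young mice, from 19 to 93 reads per mouse. Its adjusted p was 0.108 in the quasi-binomial test and 0.00803 without young mouse 4 (difference -46.2 points), which was nearest the mid-aged mice, and 7 of the 8 other tested CpGs within 100 bases were also lower in mid-aged mice, with means of 4.63% and 12.0%.

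In Foxa1 exon 2, the CpG at 57542409 was at 15.5, 12.9, 20 and 15.1% in the mid-aged mice and 37.0, 35.7, 45.5 and 23.7% in the young (quasi-binomial adjusted p = 0.134). Of its 10 tested neighbours, 8 were lower in mid-aged mice. In Prox1 intron 4, the CpG at 190137970 was at 74.5, 72.8, 70.7 and 80.5% against 90.7, 95.5, 88.7 and 83.0% (quasi-binomial adjusted p = 0.231), and its difference of -14.8 points was -7.95 with thinned reads. In Foxa3 exon 2, the CpG at 19014410 had 27.3% ± 6.59 at 40 weeks and 48.8% ± 19.7 at 10 weeks, where young mouse 1, with 13 reads, was at 76.9%. Without that mouse the difference was -12.1 points, against -21.5 with it.

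The CpG of Hnf4a at 163550023, 60 bases before the internal start, had its higher values in mid-aged mice. It was at 26.1, 17.5, 20.6 and 24.4% in the mid-aged mice and 0, 0, 6.06 and 11.2% in the young, from 24 to 120 reads per mouse (quasi-binomial adjusted p = 0.219). For a mouse with 0 methylated reads at 24 and 32 reads, a count of 0 allows up to 12.5% and 9.38%. In Cebpb, the CpG at 167688014, 901 bases upstream, was at 21.8% ± 2.56 in the mid-aged mice and 12.6% ± 1.68 in the young, and both tested neighbours were higher as well. The Foxa2 and Cebpa CpGs so chosen differed by 4.38 and 3.27 points, at levels of 7.19% or less in every mouse. Of their tested neighbours within 100 bases, 2 of 4 and 2 of 7 differed in the same direction. For the Foxa3 CpG this held for 4 of 6 and for the Prox1 CpG for 6 of 7, and the Hnf4a CpG had 0 tested neighbours. Over all tested CpGs, 41.6% were lower in mid-aged mice. Neighbours can share reads with the chosen CpG, so their counts are not independent of it.

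**Figure D5:**
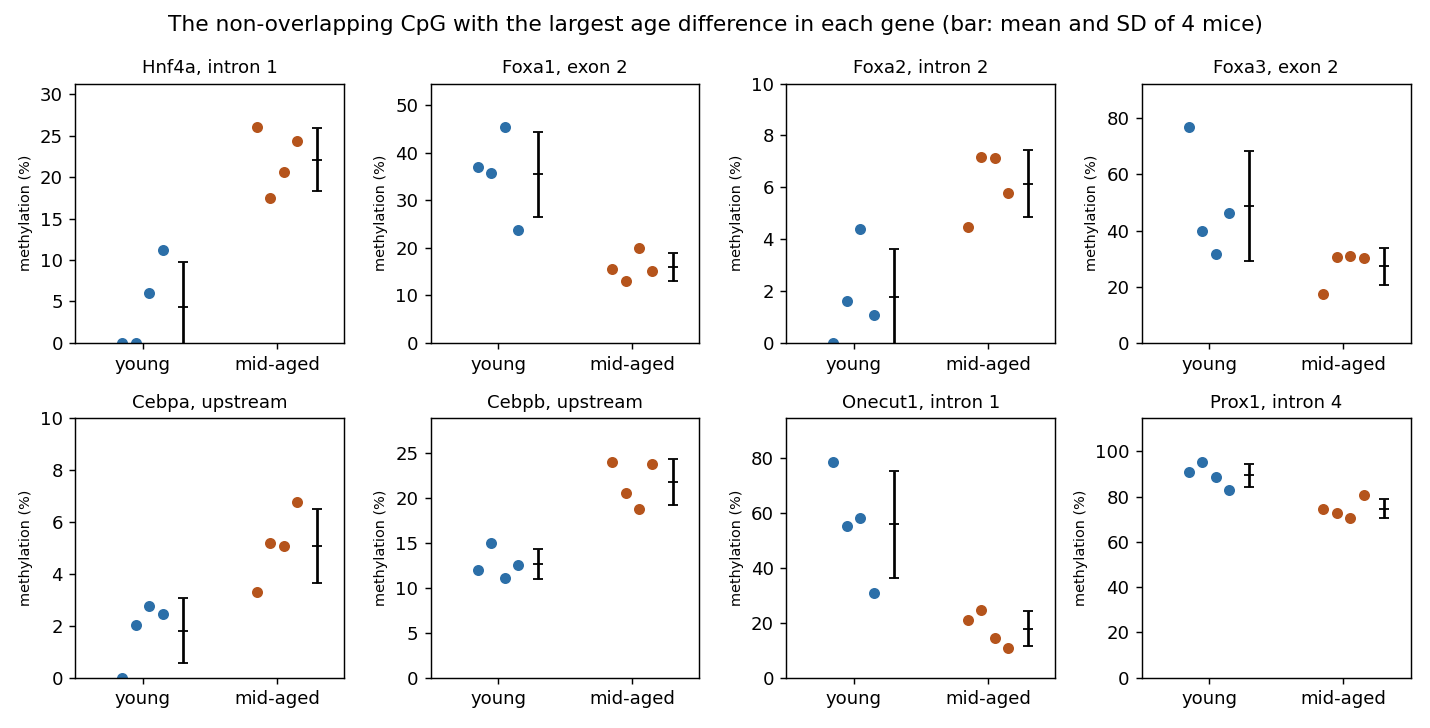
Methylation level (%, y axis from 0) in the 4 young (blue) and 4 mid-aged (orange) mice of the non-overlapping CpG with the largest age difference in each of the 8 genes, with the mean and SD of 4 as a black bar. Onecut1, Foxa1, Foxa3 and Prox1 are lower in mid-aged mice, and Hnf4a, Foxa2, Cebpa and Cebpb are higher.

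The spread between mice exceeded counting error in each of the 8 genes. Over the 744, the SD between mice within an age was 4.60 percentage points, and 3.32 points would be expected from the read counts alone. The ratio was largest in Onecut1 (5.20 against 3.26) and smallest in Foxa2 (3.89 against 3.28).

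The 300-base RefSeq promoter windows of the 8 genes (12 windows, 250 bases before to 50 after a start) were searched on both strands for short motifs of the factors themselves. The FOXA words TGTTTAC and TGTTTGC were found in 1 window each, of Foxa1 and Prox1, and in 3.65% and 5.07% of all 32851 windows. The ONECUT word ATCAATA was found in 2, of Foxa2 and Hnf4a, and in 2.05% of all, whereas ATCGATA (0.289% of all), the HNF4 word CAAAGTCCA (0.475%) and the C/EBP word TTGCGCAA (0.183%) were in none. The site CCGG was in 9 of the 12 windows and in 52.8% of all. The 2 Hnf4a windows held 4 CpGs each, below the median of 7 over all windows, and Cebpb held 50.

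The 4 lists of markers of other liver cells held no called CpG. They were for Kupffer cells and leukocytes (50 tested CpGs), sinusoidal endothelial cells (179), stellate cells (363) and cholangiocytes (354). Among all tested CpGs, 0.0615% were called higher in mid-aged mice and 0.102% lower, so few or no calls would be found in lists of this size. For their mean promoter levels the smallest p of the two-sided exact permutation test was 0.0857 (adjusted p = 0.229 over the 4 lists), in sinusoidal endothelial cells. The smallest p that 4 against 4 mice allow is 0.0286, which for a single list becomes 0.114 after adjustment, so 1 list alone could not pass. The endothelial list reached that limit at 10 or more reads in every mouse and with read-weighted means (exact p = 0.0286, adjusted p = 0.114, differences 3.11 and 2.86 points). The sinusoidal endothelial promoters (3 genes, 37 CpGs) ranged from 68.7 to 70.7% in mid-aged and from 66.0 to 68.9% in young mice, stellate from 13.0 to 14.1% and from 12.6 to 14.0%, cholangiocyte from 25.4 to 27.0% and from 24.5 to 26.1%, and the 1 Kupffer gene with a window from 79.0 to 96.6% and from 74.9 to 97.4%. Of 24 hepatocyte genes, 7 had a readable promoter window, and these averaged 32.1% ± 2.29 in the mid-aged and 34.2% ± 3.61 in the young mice. Methylation does not show the cell type by RNA, and the part of other cells in the values above was not tested.

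Related genes were counted from lists, beside 0.0615% of all tested CpGs called higher in mid-aged mice and 0.102% called lower. Of 19 other hepatocyte transcription factors 18 had tested CpGs. Among these 1506 CpGs, 10 were called higher in mid-aged mice and 0 lower, all 10 in Gata6, a zinc finger factor of liver development, within 268 bases around the end of an exon. Their mean was 64.8, 62.3, 65.2 and 56.3% in mid-aged and 45.5, 32.1, 40.7 and 35.6% in young mice, with no overlap, and the adjusted p ranged from 0.000298 to 0.0333 by the quasi-binomial test. That count was 5, 5 and 4 without mid-aged mouse 1, 2 and 3. It was 0 by limma on M values, with the replicate block and with moderation over all CpGs. Those settings called 40, 0 and 0 CpGs in the whole genome, so the loss is not particular to Gata6. Of 412 CpGs in 7 paralogues of the 8 genes, 1 was called, an intronic CpG of Onecut2 with 2.71% ± 1.14 in the mid-aged mice and 21.5% ± 12.0 in the young (quasi-binomial adjusted p = 0.0388). That call was lost without any 1 of the 4 mid-aged mice or without young mouse 3, and without young mouse 4 there were 2. It was also lost by limma on M values, with the replicate block and with moderation over all CpGs, where few or no CpGs of the genome were called. None of the 224 CpGs of hepatocyte target genes was called, where the genome shares would give few or no calls among so few CpGs.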

How the data were processed

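RRBS of hepatocyte DNA from 8 mice was analysed from the 8 processed files, 1 per mouse. Per the submitters' processing notes, the tools were BWA 0.6.2, Picard 1.115, SAMtools 1.3, Trim Galore 0.4.2 and FastQC, with the build mm10. The methylation calls came from a pipeline of the DEEP project, whose calling program is not named in those notes. The authors deposited, for each strand and cytosine, the percent methylation and the count of reads covering it. Percent times coverage gave whole methylated reads for all entries, within the rounding of the percent (0.005 percentage points), and the strands of a CpG were summed. Annotation was GENCODE M21.

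CpGs with 5 or more reads in every mouse were tested with a quasi-binomial logistic model (dispersion moderated with limma's squeezeVar, not below 1), over all 897263 CpGs. Clusters, genes and promoters with 3 or more tested CpGs were tested with limma 3.58.1 (trend) on the mean percent per mouse. p-values were adjusted by Benjamini-Hochberg over all features of a kind. The intervals are from limma on the mouse means, so they include the spread between mice. The floors from reads cover counting error only. R 4.3.3, Python 3.11.15 and SciPy 1.17.1 were used. Named CpGs are those called, or per gene the one with the largest difference without overlap at 10 or more reads; named clusters have, per gene, the largest difference or the lowest or highest mean. Scripts were tested on simulated data. The members and lists were chosen with earlier results of these data known. Alternatives were a minimum of 10 reads, limma on M values (pseudocount 1), moderation over all CpGs, thinned reads, a replicate block, leaving out each mouse, read-weighted means, clusters with gaps of 200 bases, genes without promoter windows and a 500-base promoter window. No table column of another sample was present (0).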

Additional observations from a re-analysis of the deposited data

Results flagged for a closer look

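Of 104 groups of 4 mice examined, 6 held 1 mouse whose gap to the nearest other exceeded the 95% critical value of Dixon's test for a group of 4, and chance gives about 1 in 20 groups. The internal Onecut1 promoter window (74864984 to 74866984, 9 CpGs) was at 3.93% in mid-aged mouse 4 and 7.70 to 8.39% in the other 3. The Hnf4a cluster at 163550131 to 163550215 was at 1.45% in young mouse 1 and 11.7 to 12.8% in the others. The Foxa1 exon 2 cluster was at 24.5% in young mouse 1 and 16.3 to 17.4% in the others. The Foxa3 cluster at 19024147 to 19024177 was at 0.546% in mid-aged mouse 2 and at 0 in the others. The Prox1 intron 4 cluster was at 86.5% in mid-aged mouse 2 and 74.9 to 75.5% in the others. The Foxa3 CpG at 19014410 was at 17.4% in mid-aged mouse 1, from 23 reads, and 30.3 to 31.0% in the others.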

How the results depend on the processing

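The counts of called clusters, genes and promoters in the 8 genes were 0 under every alternative that was run. The count of called member CpGs was 1 with thinned reads and 0 to 1 when each mouse was left out. The count in the other hepatocyte transcription factors, 10, was 4 to 11 when each mouse was left out and 0 by limma on M values, with moderation over all CpGs and with the replicate block. The count in the paralogues, 1, was 0 under the same 3 settings and 0 to 2 when each mouse was left out. Nothing in the labels says that the replicate numbers pair the mice. Correlations of same-numbered mice lay between -0.00252 and 0.00806, and 2 of 4 mid-aged mice correlated best with their own number. Such small correlations cannot show whether mice of the same number were handled together. With the replicate block, genome-wide calls went from 1466 to 0. They were 40 by limma on M values, 0 with moderation over all CpGs, and 612 to 2405 when each mouse was left out. The difference between the Hnf4a P1 and P2 promoters was not tested under any setting, because no CpG of the P1 window had 5 reads in every mouse. The causes of these changes were not tested.

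Differences in percentage points that changed sign, none of them called, were as follows. With read-weighted means, the stellate list was -0.0519 and the cholangiocyte list -0.661, and with the 500-base window the stellate list was -0.122. Gene means became 0.0987 for Hnf4a at 10 reads, and -0.874 for Foxa2 and -0.235 for Cebpb without the promoter windows. Read-weighted promoter differences were -2.33 for Foxa1, -0.0718 for Foxa3, 0.0956 for the internal Onecut1 window and -0.242 for Prox1. The setting on M values used these same percentage differences and differed only in its p-values, so it adds no separate sign. The Foxa3 promoter was -0.0109 at 10 reads, thinned reads gave 0.508 for the internal Onecut1 window and -0.0389 for Prox1, and the 500-base window gave -0.303 for Prox1. Leaving out each mouse gave -1.67 to 0.239 for the Cebpa cluster, -0.0290 to 0.605 for the Foxa2, -0.356 to 0.0647 for the Cebpa and -0.00609 to 0.181 for the Cebpb gene mean. For promoters it gave -0.0291 to 0.308 for Foxa3, -0.266 to 0.0425 for Cebpa, -0.264 to 0.0585 for Onecut1 and -2.15 to 1.24 for its internal window. Sizes were less stable than calls. Of 184 values recomputed under the settings that kept all mice, 58 moved by over 1.5 times or changed sign. These were 25 of 48 values for 8 gene means and 29 of 49 for 9 promoter windows. For 8 clusters they were 2 of 47, and for 8 CpGs 2 of 40. The M-value setting of gene means, promoters and clusters carried the read-weighted differences. A move with read-weighted means is therefore counted again with M values, which raises these counts. The clusters and CpGs had been picked for a large difference in each gene, which favours them under this rule. Their counts therefore cannot be set against those of the gene means and promoters. When each mouse was left out, 52 of 264 values moved in this way. The read-weighted values were -14.0 for the Prox1, -3.93 for the Onecut1 and -2.66 for the Hnf4a gene mean, and -6.45 for the Onecut1 promoter. Coverage limits single CpGs most in young mouse 1.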
